A study of Homo sapiens with 4 samples.

Results

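The nuclear-encoded subunits of respiratory complex I were examined in ES2 cells treated with EC359. Members were chosen by a rule on the gene symbol, as every NDUFA, NDUFB, NDUFC, NDUFS and NDUFV gene with a number and the acyl carrier protein gene NDUFAB1. Earlier results of these data were known when members were chosen. The rule gave 38 of the 23228 gene symbols in the count files, and all 38 had enough reads to be tested. Assembly factors, named NDUFAF and a number, are not subunits and were kept apart. ES2 is an established human ovarian cancer line, and EC359 is a small-molecule inhibitor of the leukemia inhibitory factor receptor, LIFR. Cells grown in RPMI with 10% FBS received either vehicle (0.1% DMSO) or EC359 at 10 nM for 12 h, and each treatment had 2 libraries of polyadenylated RNA. The comparison asks which transcripts differ after the receptor is blocked.

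Complex I, or NADH:ubiquinone oxidoreductase, is the entry point of electrons into the mitochondrial respiratory chain. It takes electrons from NADH through flavin and a row of iron-sulfur clusters to ubiquinone, and uses the energy released to pump protons across the inner membrane. The matrix arm holds the electron path and the membrane arm the proton channels. The channel subunits themselves are encoded by mitochondrial DNA and were not analysed here, so the membrane-arm genes below all encode accessory subunits. The subunits work only as an assembled complex, whose function was not measured by these counts.

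The values are raw read counts per gene. Between 25572494 and 31707553 counts fell on genes in each library, and 12706 genes were tested. Members had from 274 to 5695 raw counts in a library, so none was close to the limit of detection. Levels below are normalised read counts, which means counts scaled to the mean effective library size. Of the markers of the line, KRT18 had 6304 to 8773 raw counts and VIM 135855 to 153104, while PAX8 had only 24 to 41, EPCAM at most 2 and MUC16 0 in every library. After scaling, VIM was lower with EC359 (edgeR, log2 fold change -0.17, adjusted p = 0.0135), and its part in other results was not tested. Of 6 markers of other cell types, CD3E, ALB and HBB had 0 counts, PTPRC at most 1 and PECAM1 at most 2, and CD68, a lysosomal protein gene, had 2296 to 2914. LIFR, the target of the compound, had 1525 and 1475 normalised read counts with vehicle and 1612 and 1519 with EC359, and no difference passed in the quasi-likelihood test of edgeR, adjusted by the Benjamini-Hochberg method as for every adjusted p below (log2 fold change 0.062, adjusted p = 0.555). Its groups overlapped.

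EC359 was followed by small differences in complex I transcripts, lower for most members. The log2 fold changes of EC359 over vehicle ran from -0.27 for NDUFA1 to 0.40 for NDUFS7, with a median of -0.037, while the median over all tested genes was 0.0029. The fitted level was lower with EC359 for 26 members and higher for 12, so 68.4% were lower, against 49% of all tested genes. With library totals in place of TMM scaling factors, 20 of the 38 were lower and the median was -0.013. The median over all tested genes was then 0.027, and every value with library totals below stands beside it. No member passed the study's threshold of an adjusted p under 0.01, which 1.09% of tested genes passed (0.795% lower and 0.299% higher). At an adjusted p under 0.05, 2 members passed, NDUFS5 and NDUFA13, both lower, against 4.32% of tested genes (2.64% lower and 1.68% higher). An unadjusted p under 0.05 was found for 10 members, 8 lower and 2 higher, against 21.6% of tested genes. DESeq2 gave 0 members at 0.01, against 2.87% of the genes it gave an adjusted p, and edgeR's exact test gave 3, NDUFA13, NDUFS5 and NDUFS7, against 4.47% of tested genes. Calls from fits with 1 library in a treatment are not read here, since such a fit takes the spread from the other treatment. The median log2 fold change of members was -0.037 without vehicle replicate 1 and -0.044 without vehicle replicate 2. It was -0.032 without EC359 replicate 1 and -0.035 without EC359 replicate 2. Over all tested genes the medians were 0.0031, 0.0014, 0.0018 and 0.0028 in the same order.

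Summed over the 38 members, the normalised read counts were 68054 and 69662 with vehicle and 66652 and 67895 with EC359. The EC359 sums lay below the vehicle sums, but the gap between the group means was about as wide as the gap between the vehicle replicates. The difference between the group means was -2.3%, and for the same sum over all genes it was -1.64%. The members together took from 0.238% to 0.245% of all counts on genes in each library. In 16 of the 38 members both EC359 libraries lay below both vehicle libraries, and in 4 both lay above. Such separation was present in 52.6% of members and in 51.5% of tested genes, so the members were not separated more often than genes in general. Over all tested genes the separation was even in direction, with EC359 below vehicle in 25.4% and above it in 26.1%. In bulk RNA, fewer cells with a transcript and less transcript per cell cannot be told apart.

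**Figure D1:**
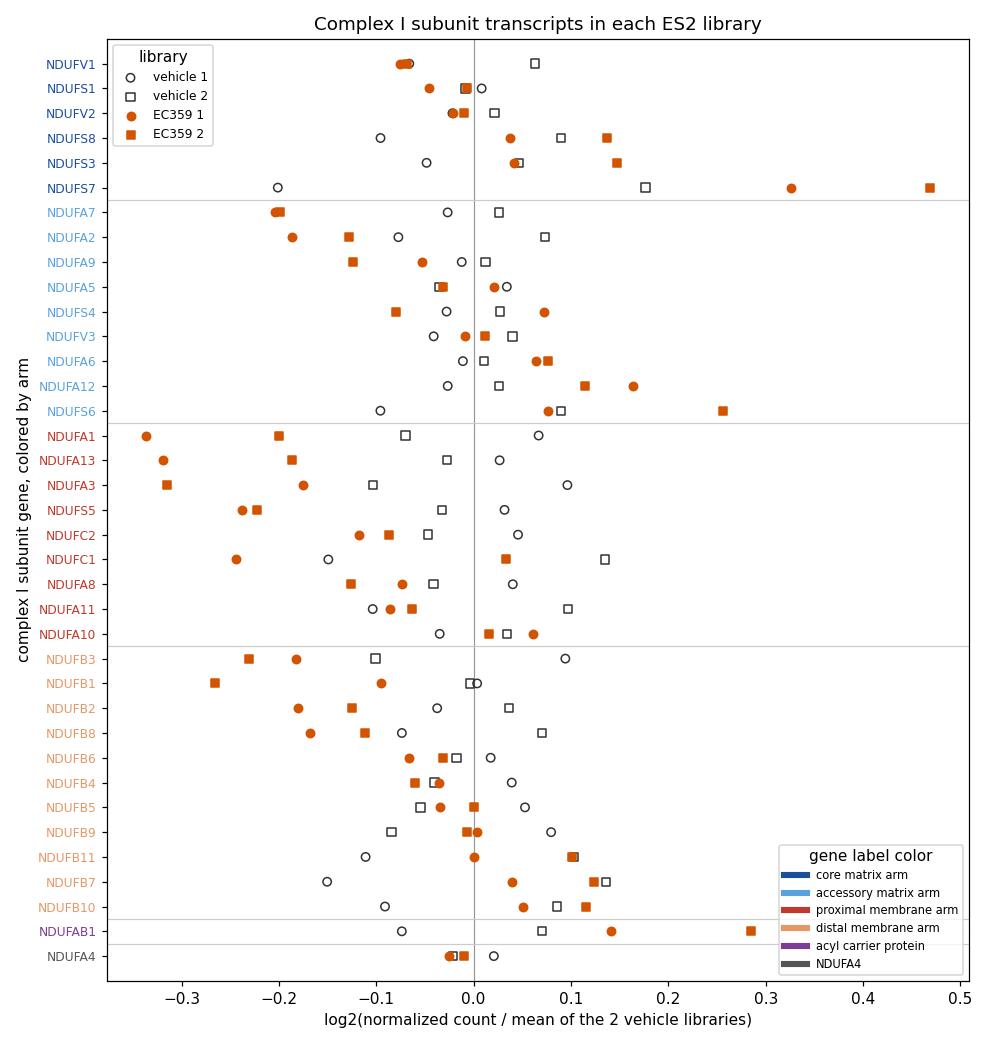
The plot shows 37 of the 38 complex I subunit genes in each library, as the log2 ratio of its normalised read count to the mean of the 2 vehicle libraries, grouped by the arm of the complex. Both EC359 libraries lie below both vehicle libraries in 6 of the 9 genes of the proximal membrane arm, and NDUFS7 has the widest spread, with 624 and 810 normalised read counts in the vehicle libraries.

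The core of the matrix arm consists of 7 nuclear-encoded subunits that bind NADH, the flavin, the iron-sulfur clusters and ubiquinone, and it did not move in one direction. Its median log2 fold change was -0.016, with 4 members lower and 3 higher, and it was 0.0083 with library totals in place of TMM factors, 0.00055 without vehicle replicate 2 and -0.0066 without EC359 replicate 1. The summed level was 17648 and 18302 with vehicle and 17830 and 18161 with EC359, a difference of 0.112% between the means, against -1.64% over all genes. The 2 EC359 sums fell between the 2 vehicle sums.

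NDUFS7, which carries the last iron-sulfur cluster before ubiquinone, was the member with the highest fold change. Its place in GRCh37 is chromosome 19, 1383526 to 1395588. It had 624 and 810 normalised read counts with vehicle and 899 and 992 with EC359. Both EC359 libraries lay above both vehicle libraries, but the log2 ratio of vehicle replicate 1 to vehicle replicate 2 was -0.38, about as large as the difference between the groups. The log2 fold change was 0.40 with a standard error of 0.11, and it did not pass (edgeR, adjusted p = 0.0628). Leaving out vehicle replicate 1 gave a log2 fold change of 0.22, and leaving out vehicle replicate 2 gave 0.59. The exons of NDUFS7 overlap antisense RNA genes, and the strand setting of the counting is not given in the sources used here.

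Of the other core members, NDUFS1, the largest subunit and a carrier of several clusters, had 4070, 4024, 3919 and 4029 normalised read counts in vehicle replicates 1 and 2 and EC359 replicates 1 and 2. NDUFV1, which binds the flavin and NADH, had 2776 and 3037 with vehicle and 2758 and 2771 with EC359. NDUFV1 was thus separated downwards, by a small amount (log2 fold change -0.072), and the libraries of NDUFS1 overlapped. NDUFV2, a cluster-binding partner of NDUFV1, had 2098, 2162, 2099 and 2116 in the same order. NDUFS3 had 1861 and 1987 with vehicle and 1979 and 2130 with EC359, and NDUFS8, which binds 2 clusters, had 1039 and 1182 against 1139 and 1221. All of these groups overlapped. The adjusted p of these 5 genes ran from 0.356 to 0.886, with standard errors of 0.037 to 0.072. Of the 50-base windows of the NDUFV2 transcript, 89.4% are shared with other annotated genes, mostly a long noncoding RNA gene that overlaps it on the same strand, and 28.6% with genes elsewhere, so some of its reads could be lost or shared.

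The accessory subunits of the matrix arm, 9 genes, had their median log2 fold change at -0.0012 (0.023 with library totals, -0.028 and 0.021 without vehicle replicates 1 and 2, and -0.032 and 0.021 without EC359 replicates 1 and 2), 5 being lower and 4 higher. NDUFA7 was the only one with an unadjusted p under 0.05. It lies on chromosome 19 from 8373652 to 8386259, and had 708 and 734 normalised read counts with vehicle and 626 and 628 with EC359. Its replicates were close and its groups apart, with a log2 fold change of -0.20 and a standard error of 0.068 (edgeR, adjusted p = 0.117). Of its windows, 75.9% are shared with an annotated gene that overlaps it on the same strand, and NDUFA7 also overlaps RPS28, a ribosomal protein gene on the other strand, so its level is uncertain. RPS28 had 1558 and 1816 normalised read counts with vehicle and 1665 and 1767 with EC359, and its groups overlapped. NDUFS6, a zinc-binding subunit, and NDUFA12 had log2 fold changes of 0.17 and 0.14 in the other direction. NDUFS6 had 1300 and 1479 with vehicle and 1465 and 1659 with EC359, and its groups overlapped. NDUFA12 had 771 and 800 with vehicle and 880 and 851 with EC359, and its groups did not. Neither passed (adjusted p = 0.235 and 0.24).

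The proximal membrane arm, next to the matrix arm, held the lowest values. Its 9 accessory subunits had their median log2 fold change at -0.10, 8 being lower and 1 higher. In 6 of the 9 both EC359 libraries lay below both vehicle libraries, against 25.4% of tested genes. The summed level was 13133 in both vehicle libraries and 11776 and 12045 with EC359, a difference of -9.31% between the means. For the matrix arm's accessory subunits the same difference was -0.211%, for the distal membrane arm -3.19% and over all genes -1.64%. Whether the arms differ from each other was not tested. The proximal arm's median stayed negative without any 1 library, from -0.13 to -0.17, with -0.17 both without vehicle replicate 1 and without EC359 replicate 2.

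NDUFS5, a small accessory subunit on the intermembrane side, had the lowest p of all members. It lies on chromosome 1 from 39491990 to 39500308. It had 3013 and 2882 normalised read counts with vehicle (2948 ± 92.7, SD, n = 2) and 2500 and 2526 with EC359 (2513 ± 18.6, SD, n = 2). The groups were well apart, with a log2 fold change of -0.23 and a standard error of 0.043 (edgeR, adjusted p = 0.0174). Without EC359 replicate 1 the log2 fold change was -0.22, and without EC359 replicate 2 it was -0.24.

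NDUFA13, also called GRIM-19, is an accessory subunit that was first described as a cell-death regulator and has been reported to bind STAT3. It lies on chromosome 19 from 19626545 to 19639863. It had 2234 and 2152 normalised read counts with vehicle (2193 ± 58, SD, n = 2) and 1757 and 1926 with EC359 (1842 ± 119, SD, n = 2). The groups did not overlap, although the EC359 libraries were farther apart than the vehicle libraries, and the log2 fold change was -0.25 with a standard error of 0.055 (edgeR, adjusted p = 0.0316). The log2 fold change was -0.19 without EC359 replicate 1 and -0.32 without EC359 replicate 2. Without the filter on low counts the adjusted p of NDUFA13 by edgeR was 0.0543. Of the 50-base windows of its transcript, 82.4% are shared with annotated genes that overlap it on the same strand, a readthrough gene and YJEFN3, so reads could have been left out or assigned elsewhere, and its level is uncertain.

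NDUFA1, a short single-span membrane protein encoded on chromosome X (119005795 to 119010625), had 1033 and 939 normalised read counts with vehicle and 781 and 858 with EC359. NDUFA3, another small membrane subunit, on chromosome 19 from 54606036 to 54612564, had 350 and 305 with vehicle and 290 and 263 with EC359. Both were separated downwards, with log2 fold changes of -0.27 (standard error 0.074) and -0.24 (standard error 0.11). Neither passed over all genes (adjusted p = 0.0704 and 0.22 by edgeR). NDUFC2 had 685 and 642 with vehicle and 611 and 625 with EC359. It shares exons with the readthrough gene NDUFC2-KCTD14, which had 0 counts in all 4 libraries, so reads on shared exons could have been left out of both, and the level of NDUFC2 is uncertain.

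The distal membrane arm holds the accessory subunits NDUFB1 to NDUFB11, 11 genes around the proton channels at the far end of the complex. Their median log2 fold change was -0.048, with 8 lower and 3 higher. Of the 11, 5 were separated downwards and 0 upwards, against 25.4% and 26.1% of tested genes. Leaving out vehicle replicate 2 moved the median to -0.075, and leaving out EC359 replicate 1 moved it to -0.032, and with library totals it was -0.024. The 3 members with an unadjusted p under 0.05 were all lower, and 11% of tested genes were lower at that threshold. NDUFB2, on chromosome 7 from 140390577 to 140422590, had 1991 and 2095 normalised read counts with vehicle and 1803 and 1874 with EC359. NDUFB3, on chromosome 2 from 201936156 to 201950473, had 1290 and 1127 with vehicle and 1065 and 1030 with EC359. NDUFB8, on chromosome 10 from 102283497 to 102289757, a subunit widely used to detect assembled complex I on immunoblots, had 3693 and 4080 with vehicle and 3458 and 3597 with EC359. No vehicle library of these genes fell as low as an EC359 library, but their vehicle replicates differed from each other by amounts close to the group difference in NDUFB3 and NDUFB8. The log2 fold changes were -0.15, -0.21 and -0.14, with standard errors of 0.05, 0.071 and 0.05, and the adjusted p values were 0.113, 0.127 and 0.142. Of the windows of the NDUFB8 transcript, 73% are shared with other annotated genes, mostly one that overlaps it on the same strand. NDUFB8 also overlaps HIF1AN on the other strand. Its reads could have been left out or assigned elsewhere, so its level is uncertain. NDUFB1, with 543 and 541 against 508 and 451, was also separated (log2 fold change -0.18, adjusted p = 0.248).

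**Figure D2:**
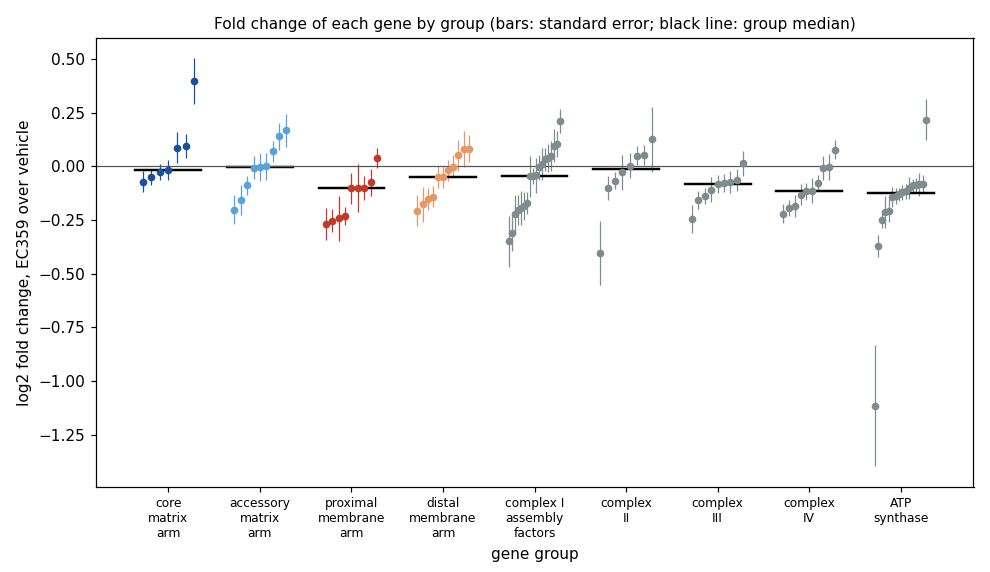
The plot shows the log2 fold change of EC359 over vehicle for each gene, with bars of 1 standard error and a black line at the group median, for the 4 groups of complex I subunits by arm (NDUFAB1 and NDUFA4 are not drawn), and in grey for the assembly factors and the other complexes. The complex II group includes its own assembly factors. The proximal membrane arm has 8 of 9 genes below 0 and the core of the matrix arm 4 of 7, the highest point is NDUFS7 at 0.40, and the lowest, at -1.11, is ATP5E of ATP synthase, which has few counts.

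NDUFAB1 encodes the mitochondrial acyl carrier protein, which sits in both arms of complex I and also serves mitochondrial fatty acid synthesis and iron-sulfur cluster assembly. It lies on chromosome 16 from 23592335 to 23607637, and had 2103 and 2323 normalised read counts with vehicle and 2440 and 2696 with EC359. The groups did not overlap, and the replicates of each differed by a similar amount. The log2 fold change was 0.21 with a standard error of 0.062 (edgeR, adjusted p = 0.0785). NDUFA4 has a complex I name but is now assigned to complex IV. It had 2244 and 2180 with vehicle and 2174 and 2196 with EC359, with overlapping groups and a log2 fold change of -0.018, which turned to 0.0062 with library totals alone. Without NDUFA4, the remaining 37 members had a median of -0.048, with 25 lower and 12 higher. NDUFA4L2, a hypoxia-induced relative of NDUFA4 and not a member, was near the limit of the data, with 10 and 20 normalised read counts with vehicle and 14.2 and 13.1 with EC359.

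The 28 members with an unadjusted p of 0.05 or more had log2 fold changes between -0.18 and 0.17, with 18 lower and 10 higher, and standard errors of 0.036 to 0.11. Their adjusted p ran from 0.233 to 0.994. NDUFA2, an accessory matrix arm subunit with a thioredoxin-like fold, had the lowest adjusted p of these, with 848 and 941 normalised read counts with vehicle and 786 and 819 with EC359, and its groups did not overlap.

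Levels can be compared between genes only per length of transcript. On the scale of normalised read counts per 1000 bases of the canonical transcript, 14 members had canonical, median and longest annotated transcripts within 1.5 times of each other. Their vehicle levels ran from 1150 to 5950. The highest were 5950 for NDUFS5 and 5730 for NDUFB8, which with EC359 were 5080 and 5200, and with the longest transcript the vehicle levels were 5420 and 4690. The lowest were 1150 for NDUFB6, 1240 for NDUFA7 and 1380 for NDUFA2, and with EC359 1110, 1080 and 1240, and these neighbours change order with the transcript taken. The levels of NDUFB8 and NDUFA7 are uncertain, since most of their transcript windows are shared with genes that overlap them on the same strand. For the other 24 members the annotated transcripts differ so much in length that the level per length is uncertain. Among them NDUFB9 stood at 4490 with vehicle by the canonical and 682 by the longest transcript, and NDUFV3, NDUFA5 and NDUFC2 had the lowest canonical values of all members, 159, 298 and 306. In single libraries NDUFV3 had 886, 937, 906 and 919 normalised read counts in vehicle replicates 1 and 2 and EC359 replicates 1 and 2. NDUFA5 had 1675, 1597, 1659 and 1600 in the same order, and in both genes the groups overlapped. NDUFB9 had 3282, 2930, 3114 and 3091, also with overlapping groups.

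Most members have short transcripts. The median canonical length was 693.5 bases, against 3349.5 bases over all tested genes. In these libraries short genes as a class were lower with EC359. Of all 712 tested genes of 300 to under 1000 bases, 63.6% were lower, with a median log2 fold change of -0.064 and an unadjusted p under 0.05 in 28.7%. The 26 members of that length had 17 lower (65.4%), a median of -0.061 and an unadjusted p under 0.05 in 38.5%. The 12 members of 1000 bases or more had a median of -0.022, with 9 lower and 0 with an unadjusted p under 0.05, and the 11353 tested genes of that length had a median of 0.0071, with 47.5% lower. All 10 members with an unadjusted p under 0.05 were thus short genes, and the part of length in their values was not tested. The bounds of 300 and 1000 bases were chosen after the values were seen. Removing each library's trend against length left NDUFS5 at -0.19 (adjusted p = 0.0406) and NDUFA13 at -0.21 (adjusted p = 0.0399).

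**Figure D3:**
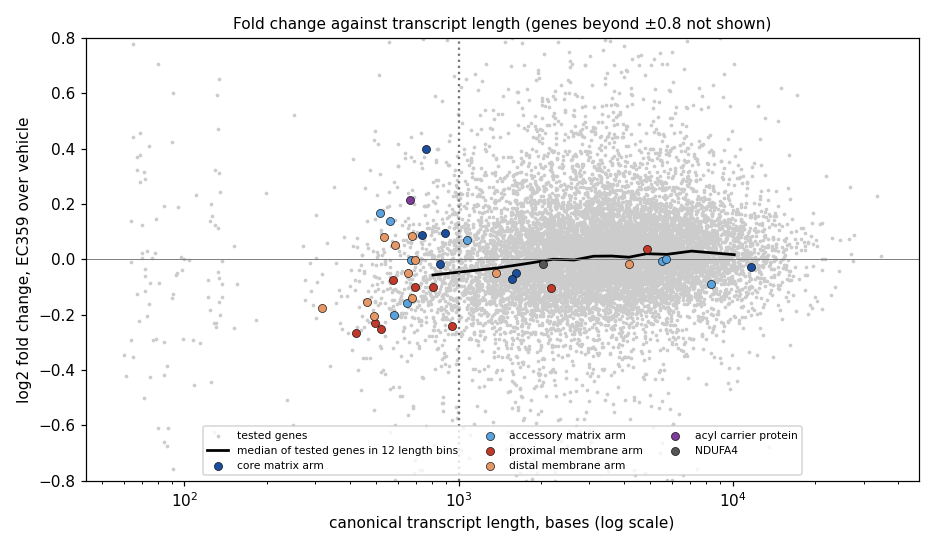
The plot shows the log2 fold change of EC359 over vehicle against canonical transcript length (log axis) for tested genes in grey and complex I subunits in colour, with a line for the median of tested genes in length bins and a dotted line at 1000 bases. Short genes lie lower as a class, and 26 of the 38 members are to the left of the dotted line.

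The base composition of the members moved with differences between replicates of one treatment. Across the 38 members, the log2 ratio of vehicle replicate 1 to vehicle replicate 2 had a correlation of -0.61 with transcript GC content (Spearman's rho -0.59), and that of EC359 replicate 1 to EC359 replicate 2 one of -0.41 (rho -0.45). Over all tested genes these were -0.32 (rho -0.46) and -0.21 (rho -0.34). These describe genes of shared libraries and are not tests. Of the 9 members with a GC content of 58% or more, a bound chosen after the values were seen, vehicle replicate 1 was below vehicle replicate 2 in 8 and EC359 replicate 1 was below EC359 replicate 2 in 9. Of the 29 members below that bound the numbers were 14 and 17. The fold change between treatments had a correlation of 0.22 with GC content over members (rho 0.11) and 0.0015 over all tested genes (rho -0.045). NDUFS7, with the highest GC content of the members at 66.9%, had the widest difference between vehicle replicates, and with each library's GC trend removed its log2 fold change was 0.27 (adjusted p = 0.00356 by edgeR). With that trend removed, 8.72% of tested genes and 6 members passed an adjusted p under 0.01, NDUFA1, NDUFA13, NDUFB3 and NDUFS5 lower and NDUFAB1 and NDUFS7 higher.

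**Figure D4:**
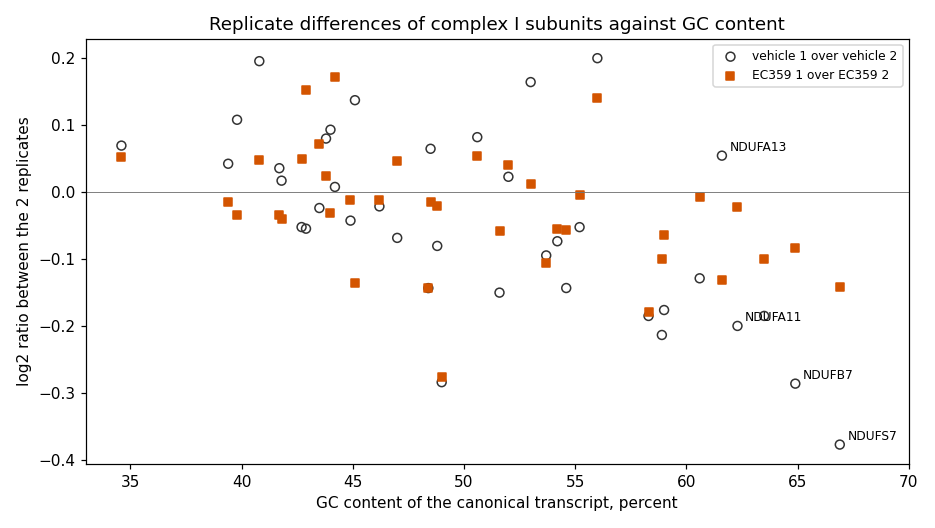
The plot shows, for each complex I subunit gene, the log2 ratio of replicate 1 to replicate 2 within vehicle and within EC359, against transcript GC content in percent. Genes of high GC content lie below 0 in both treatments, except NDUFA13 in vehicle, and NDUFS7, at 66.9% GC, lies at -0.38 in vehicle.

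Nuclear respiratory factor 1, encoded by NRF1, and YY1 are transcription factors known for binding promoters of respiratory chain genes, and their DNA motifs were searched in member promoters. RefSeq promoters of GRCh38.p14, from 250 bases before to 50 bases after each annotated start, were at hand for 33 of the 38 members, as 40 promoters. On either strand, the letters AAGATGGCG, a YY1 motif, occurred in 6 of the 40 (15%), against 1.75% of all 35116 promoters and 3.56% of the 13031 promoters of tested genes. The NRF1 motif (GCGCA, any base, then GCGC) occurred in 6 (15%), against 5.78% and 9.78%. CCGGAAGT, an ETS motif, was in 5%, against 4.14% and 7.39%, ACGTG, the core of the hypoxia response element, in 25%, against 21.4% and 25.6%, and CCAAT, the NFY motif, in 25%, against 34.6% and 35.1%. These motifs did not overlap each other in member promoters. A match is a run of letters and not a binding site. The 6 YY1 matches are printed below because all of them read as spelled on the gene's strand and all lay within 11 to 26 bases after the start. The motif is in capitals.
NDUFA6, chr22:42090728-42090757, minus strand: atgctttggcAAGATGGCGgggagcggcgt
NDUFA7, chr19:8321342-8321371, minus strand: tcgcggacggAAGATGGCGtccgccacccg
NDUFA9, chr12:4649114-4649143, plus strand: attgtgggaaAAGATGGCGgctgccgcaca
NDUFB8, chr10:100529835-100529864, minus strand: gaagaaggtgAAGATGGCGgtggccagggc
NDUFS4, chr5:53560650-53560679, plus strand: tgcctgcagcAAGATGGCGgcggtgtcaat
NDUFS7, chr19:1383914-1383943, plus strand: ggccgaggccAAGATGGCGgtgctgtcagg

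The genes with this YY1 motif did not share a direction. Of the 6, 4 were lower and 2 higher with EC359, which is near the 68.4% of all members that were lower. NDUFA7 and NDUFB8 were lower and NDUFS7 higher at an unadjusted p under 0.05, against 11% and 10.7% of tested genes. The median log2 fold change of the 6 was -0.045. The NRF1 matches lay before the start except for a second one in NDUFA8, 3 bases after it. They are shown for 3 genes, NDUFA3 because it had an unadjusted p under 0.05, NDUFA8 because its first match was 4 bases before the start and NDUFA9 because it also holds the YY1 motif, there as the reverse complement.
NDUFA3, chr19:54102675-54102704, plus strand: ctgcgcgagtGCGCACGCGCaggctccgaa
NDUFA8, chr9:122159764-122159793, minus strand: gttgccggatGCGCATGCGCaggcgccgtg
NDUFA9, chr12:4649024-4649053, plus strand: ttcttggttaGCGCTTGCGCagacaggcga
Of the 6 genes with an NRF1 motif, 5 were lower and 1 higher, with log2 fold changes from -0.24 to 0.14 and a median of -0.081. Among all members 68.4% were lower, and the part of either motif was not tested. NDUFA13 was one of the 2 members with an ETS motif, which lay 10 bases before the start.
NDUFA13, chr19:19516204-19516233, plus strand: tccgcccgggaCCGGAAGTgtgggatactg

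The members lie on 18 chromosomes. Chromosome 19 holds 6 of them, NDUFA3, NDUFA7, NDUFA11, NDUFA13, NDUFB7 and NDUFS7, which is 15.8% of the members against 6.74% of tested genes. Of these 6, NDUFA3, NDUFA7 and NDUFA13 were lower and NDUFS7 higher at an unadjusted p under 0.05, against 11% and 10.7% of tested genes. Over all 38 members, 10 had such a p. The part of location in these values was not tested. For 16 of the 38 members, none of the 50-base windows of the transcript occurs in a transcript of another annotated gene. For 23, none occurs in a gene at another place, and the difference comes from genes that overlap the member, such as NDUFA11, with 65.4% of its windows shared.

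Genes that build or regulate complex I were read from lists. Of 18 tested assembly factors, 11 were lower with EC359 and the median log2 fold change was -0.043, which became -0.028 without vehicle replicate 1 and -0.02 with library totals. An unadjusted p under 0.05 was found for 7 lower and 1 higher, against 11% and 10.7% of tested genes, and none had an adjusted p under 0.05. TMEM70, which helps assemble the membrane arm and ATP synthase, had 1560 and 1676 normalised read counts with vehicle and 1832 and 1918 with EC359 (log2 fold change 0.21, adjusted p = 0.0572). C2orf56, an older symbol of NDUFAF7, a methyltransferase needed for complex I assembly, had 412 and 382 with vehicle and 318 and 324 with EC359 (log2 fold change -0.31, adjusted p = 0.0769). Both genes were separated, in opposite directions. C9orf123, an older symbol of DMAC1, stood at -0.17 (adjusted p = 0.0844) and TMEM126B at 0.10 (adjusted p = 0.334). Of 15 iron-sulfur cluster assembly genes, 10 were higher and 5 lower. The 2 with an unadjusted p under 0.05, NDUFAB1 and ISCA2, were higher, as were 10.7% of tested genes at that threshold. ISCA2 had 295 and 398 with vehicle and 420 and 456 with EC359 (log2 fold change 0.34, adjusted p = 0.153), and HSCB and LYRM4, the lowest of the list by p on the other side, stood at -0.15 and -0.077.

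Of 12 regulators of mitochondrial biogenesis, 8 were lower, and NRF1 alone had an adjusted p under 0.05. NRF1 had 1008 and 952 normalised read counts with vehicle and 823 and 768 with EC359 (log2 fold change -0.30, standard error 0.067, adjusted p = 0.0336 by edgeR). Its groups were clearly apart. YY1 had 2852 and 2719 with vehicle and 2941 and 3047 with EC359 (log2 fold change 0.10, adjusted p = 0.208), POLRMT stood at 0.18 (adjusted p = 0.234), and TFB2M, a mitochondrial transcription factor, had 2475 and 2326 against 2202 and 2116 (log2 fold change -0.15, adjusted p = 0.106).

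Complexes III and IV and ATP synthase had lower medians than complex I, and the complex II list did not. That list also holds assembly factors of complex II, SDHAF1, SDHAF2, ACN9 and C6orf57, while the lists of the other complexes hold subunits. Its median is therefore not one of subunits alone. Complex II, which feeds electrons from succinate, had its median log2 fold change at -0.013 over 8 genes, 4 of them lower, and 0.011 with library totals. Complex III had -0.081 over 9 genes with 8 lower, complex IV -0.11 over 10 genes with 9 lower, and ATP synthase -0.13 over 16 genes with 15 lower. Without vehicle replicate 1 the median of complex III was -0.13, and that of complex II was -0.0061 without vehicle replicate 1, -0.032 without vehicle replicate 2, -0.021 without EC359 replicate 1 and -0.0087 without EC359 replicate 2. No test of the difference between complexes was made. Within these lists 3, 6 and 12 genes were lower at an unadjusted p under 0.05, against 11% of tested genes. ATP5G2, a gene of the rotor ring of ATP synthase, fell from 4870 and 4808 normalised read counts with vehicle to 4166 and 3981 with EC359 (log2 fold change -0.25, adjusted p = 0.00729), and ATP5G1, another gene of that ring, had a log2 fold change of -0.37 (adjusted p = 0.00509). Without EC359 replicate 1 the log2 fold changes of ATP5G2 and ATP5G1 were -0.28 and -0.33. Without EC359 replicate 2 they were -0.22 and -0.41. ATP5G2 had an adjusted p above 0.01 with library totals (0.0105), without the filter on low counts (0.0155) and with the length trend removed (0.0196). For ATP5G1 the adjusted p was above 0.01 without the filter (0.0107). COX7C and COX7A2 of complex IV and ATP5B, the catalytic subunit gene of ATP synthase, had an adjusted p under 0.05 only (0.0224, 0.0244 and 0.0411), at log2 fold changes of -0.19, -0.22 and -0.13. UQCRQ and UQCRH had the lowest p of complex III, at -0.25 and -0.16 (adjusted p = 0.066 and 0.0676). C6orf57, an older symbol of the complex II assembly factor SDHAF4, stood at -0.40 (adjusted p = 0.155). On the other side of 0, SDHB, SDHD, UQCRB, COX5A and ATP5D had log2 fold changes of 0.05, 0.054, 0.015, 0.078 and 0.22, and none passed (adjusted p of 0.213 to 0.918). UQCRB took a negative value with the length or GC trend removed. Among genes of 1000 bases or more, the 16 of complexes III, IV and ATP synthase had a median of -0.10, and the 12 of complex I one of -0.022.

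NADH can be reoxidised outside complex I, and the median log2 fold change over 10 tested genes of that kind was -0.042, with 6 lower. It was -0.018 with library totals, -0.078 without the filter on low counts, -0.023 without EC359 replicate 1 and -0.079 without EC359 replicate 2. LDHA, which reduces pyruvate to lactate with NADH, fell with EC359 (log2 fold change -0.41, adjusted p = 0.000581), and MDH1, of the malate shuttle, was lower (-0.15, adjusted p = 0.041). For LDHA the log2 fold change was -0.45 without EC359 replicate 1 and -0.37 without EC359 replicate 2. GPD2, of the glycerol phosphate shuttle, which passes electrons to ubiquinone without complex I, was higher by 0.16 on the log2 scale but did not pass (adjusted p = 0.0539), and ETFDH stood at 0.22. In a list of genes that adapt the chain to low oxygen, PDK1 fell from 3192 and 2890 to 2407 and 2352 normalised read counts (log2 fold change -0.35, adjusted p = 0.00634). It encodes a kinase that restrains pyruvate dehydrogenase, and with it the oxidation of pyruvate in mitochondria. Its log2 fold change was -0.37 without EC359 replicate 1 and -0.34 without EC359 replicate 2. Without the filter on low counts its adjusted p by edgeR was 0.0139. BNIP3 and BNIP3L, mitophagy receptors on the outer mitochondrial membrane, had log2 fold changes of -0.48 and -0.26 (adjusted p = 0.000418 and 0.0139). That of BNIP3 was -0.46 without EC359 replicate 1 and -0.49 without EC359 replicate 2. With TMM factors all 6 tested genes of that list had a lower fitted level, against 49% of tested genes, and 3 of them were separated. NDUFA4L2, its member nearest to complex I, is among the 6, at -0.14, but its counts were too low to tell.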

How the data were processed

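The authors sequenced polyadenylated RNA with a stranded 50-base single-end protocol, aligned reads to UCSC hg19 with TopHat2 2.0.8b and counted them on RefSeq genes with HTSeq. For each of the 4 libraries the authors deposited these counts, unnormalised, by gene symbol. The strand setting is not given in the sources used here. Rows that name no gene were left out, and reads on no gene made up 10.9% to 12% and ambiguous reads 0.852% to 0.879% of reads with 1 alignment.

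Genes were filtered with filterByExpr (minimum count 10, minimum total 15), scaled with TMM factors and tested with the quasi-likelihood test of edgeR 4.0.16 in R 4.3.3, with p adjusted by the Benjamini-Hochberg method over all 12706 tested genes. The fit had 8.28 prior degrees of freedom and a biological coefficient of variation of 3.5%. Replicates differed by more than sampling noise (chi-square per degree of freedom 3.81 for vehicle and 2.72 for EC359). The study describes the replicates as biologically independent, and the labels do not say what separated them. The test was checked on simulated counts.

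Members, gene lists and the rule for named genes were chosen with earlier results of these data known, so no list is independent evidence. Full values were given for members with an unadjusted p under 0.05, the core matrix arm, NDUFA4, NDUFA4L2 and LIFR, and levels for the members highest and lowest per length. From each other list, up to 2 genes with the lowest p in each direction and those with an adjusted p under 0.05 were named, and 1 member is not reported here on its own. Places, lengths and GC content came from GENCODE v44 lifted to GRCh37, the assembly of hg19, which gave a length for 95.8% of tested genes and for all members. Alternatives were RLE and upper-quartile factors, library totals, DESeq2 1.42.0, edgeR's exact test, limma 3.58.1 voom, other filters, a replicate block, removal of length and GC trends by splines, and leaving out each library.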

Additional observations from a re-analysis of the deposited data

How the results depend on the processing

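With 2 libraries per treatment, calls among complex I subunits moved with the model for the spread and with base composition more than with scaling, and in each case below the cause was not tested. Members with an adjusted p under 0.01, 0 in the report, numbered 3 with edgeR's exact test, against 4.47% of tested genes. With a replicate block (a model term for the replicate number) they numbered 9, against 12.1%. There were 6 with the GC trend removed, against 8.72%, and 5 with length and GC trends removed, against 7.91%. Both removals with the block gave 9, against 15.3%. Under 0.05, 2 in the report, they numbered 5, 10, 9, 10 and 12 in the same order, 4 with the length trend removed, 1 with no filter and 0 to 8 without 1 library. At an unadjusted p under 0.05, 10 in the report, they numbered 17 with the block, 17 with the GC trend removed and 16 with both trends removed and the block. The shares of all tested genes under these alternatives were not taken at 0.05, adjusted or not. Those member counts are therefore not read as particular to complex I. Their median log2 fold change was -0.013 with library totals only and -0.053 with the GC trend removed, and -0.044 to -0.032 without 1 library. Members with a lower fitted level numbered 22 to 27 without 1 library and stayed within 1.5 times the reported count under every alternative run. Over all tested genes, 139 passed 0.01, against 230 with DESeq2, 568 with the exact test, 61 with no filter, 1539 with the block, 1108 with the GC trend removed, 1005 with both trends removed, 1948 with both and the block, and 0 to 539 without 1 library.

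The median of the core matrix arm turned to 0.0083 with library totals, 0.015 with the length trend removed and 0.025 with both trends removed, with or without the block. That of complex II turned to 0.011, 0.01 and 0.014. Over all tested genes the medians under these settings were 0.027, -0.017 and -0.014. NDUFV2 turned to 0.0083, 0.015 and 0.025 under the same settings and ranged from -0.036 to 0.00055 without 1 library. NDUFA4 turned to 0.0062 with library totals and 0.0042 without vehicle replicate 1, and without 1 library NDUFS8 ranged from -0.0016 (without vehicle replicate 1) to 0.18 and NDUFA4L2 from -0.55 to 0.44 (without vehicle replicate 2). UQCRB turned to -0.022 with the length trend, -0.018 with the GC trend and -0.033 with both removed, also with the block, to -0.034 without EC359 replicate 1 and, over single libraries left out, ranged from -0.083 (without vehicle replicate 2) to 0.11. Of 934 values for 55 named genes under the alternatives, 793 kept direction and side of the threshold, 111 passed it newly, 15 lost it and 15 changed direction. Same-numbered replicates had a correlation of 0.112 in their deviations, over only 2 pairs, which cannot tell whether the numbers pair the libraries. Of the 9 members with a GC content of 58% or more, replicate 1 was below replicate 2 in 8 with vehicle and 9 with EC359. The labels do not say what a number marks, so the block was kept as an alternative only. With a treatment reduced to 1 library, its spread was assumed to be that of the other treatment.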

Other observations

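The first vehicle library had the highest of the 4 normalised read counts in 16 of the 38 complex I subunits and the lowest in 14. EC359 replicate 1 was highest in 3 and lowest in 13. Vehicle replicate 2 was highest in 12 and lowest in 3, and EC359 replicate 2 highest in 7 and lowest in 8.

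Complex III, complex IV and ATP synthase hold genes of the same short lengths as complex I. Between 300 and 1000 bases, 18 of their 19 genes were lower with EC359, with a median log2 fold change of -0.14, while 17 of 26 complex I subunits of those lengths were lower, with a median of -0.061. The difference between the complexes was not tested.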
